A study of Mus musculus with 3 samples.

Results

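The genes described here are 10 genes of the non-collagen extracellular matrix around hair follicle stem cells (HFSCs): Postn, Fbln1, Angptl2, Ltbp1, Ltbp2, Fbn1, Tnc, Npnt, Sparc and Fn1. They were taken from a list of adhesion and matrix genes by name, and all 10 were found among 21938 protein-coding genes. Open chromatin was mapped by Omni-ATAC-seq, in which Tn5 transposase cuts accessible DNA, in HFSCs sorted as Sca-1 negative cells with high CD34 and alpha6 integrin from the dorsal skin of mice aged 6 months in telogen, when the hair cycle rests. There were 3 libraries, of which 1 was wild-type (Msx2-WT) and 2 were Msx2 knockouts (Msx2-KO replicates 1 and 2). Per the methods of the study, the control animals were C57BL/6J mice, and the germline knockout carries a neo cassette upstream of exon 2 of Msx2, which encodes a homeobox transcription factor. The strain background of the Msx2-KO line is not given in the sources used here, nor is the number of animals per library. The question for these genes is which of their promoters and introns were open in each library, and where the libraries differed.

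The matrix around a follicle holds microfibrils, built on fibrillin-1, onto which elastic fibres assemble and to which latent TGF-beta is tethered. Fibronectin and nephronectin are adhesive proteins that cells grip through integrins. Matricellular proteins such as periostin, tenascin-C and SPARC are secreted into the matrix and change how cells hold on to it, with little structural role of their own. In skin, most of these genes are known best from dermal fibroblasts, while nephronectin is known as a product of bulge stem cells that anchors the arrector pili muscle.

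The batch field of the labels differs between Msx2-WT and the Msx2-KO pair, so batch and genotype cannot be told apart, and no value within a batch exists. With 1 Msx2-WT library no test of genotype was possible, and the spread between replicates comes from the Msx2-KO pair alone. A peak was counted where the q-value of the authors' peak caller was under 0.01, and 29817 peaks passed in Msx2-WT, 18518 in replicate 1 of Msx2-KO and 37012 in replicate 2. The tag number at a summit, the count of extended reads there, was recovered from the deposited fold and −log10 p. The fewest tags that made a called peak were 9 in Msx2-WT, 5 in replicate 1 and 6 in replicate 2, so a site needed more tags to be called in Msx2-WT. At regions with a peak in every library the median was 23 tags in Msx2-WT, 11 in replicate 1 and 24 in replicate 2, and a relative tag number is the tag number over this median. Over the commonest background of each library these medians were 13.2, 23.1 and 30.4 times, so scaling by the background places both Msx2-KO libraries higher against Msx2-WT. Intervals are 95% Poisson intervals and cover counting error at most. Duplicate reads were kept and are not independent molecules, so the intervals, also those of ratios, may be too narrow even for that. The targeted gene, Msx2, had a promoter peak of 15, 9 and 16 tags in Msx2-WT, replicate 1 and replicate 2, which is no check of the genotype because an inserted cassette need not close the promoter. Inside the Msx2-KO lists the peaks are named cKO, and in replicate 1 these names hold a library number that differs from its label. The labels, which name a knockout, were followed, so every value of replicate 1 rests on its label.

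Promoter peaks were present at 9 of 10 HFSC marker genes in Msx2-WT, 7 in replicate 1 and 8 in replicate 2, including Lhx2, Sox9 and Itga6 in every library. The markers Krt15 and Cd34 had none in replicate 1. Of 10 dermal fibroblast markers, 2 were open at the promoter in Msx2-WT, 1 in replicate 1 and 5 in replicate 2. Their summed relative tag number was 1.35 in Msx2-WT, 0.818 in replicate 1 and 2.25 in replicate 2, against 9.39, 7.91 and 8.79 for the HFSC list. Col1a2 was open in both Msx2-KO libraries but not in Msx2-WT, Col1a1 and Pdgfra in Msx2-WT and replicate 2, and Thy1 and Prrx1 in replicate 2 alone. Col3a1, Lum, Dcn, Dpt and Twist2 had no promoter peak in any library. Endothelial promoters were open at 0, 1 and 3 of 5 genes in Msx2-WT, replicate 1 and replicate 2, and their part in the results, like that of the fibroblast promoters, was not tested. Of 5 genes each, melanocyte promoters were open at 3, 2 and 3, interfollicular epidermis promoters at 2, 0 and 0, and immune promoters at 0 in each library. The 2 epidermal promoters of Msx2-WT were those of Krt10, with 10 tags, and Ly6a, with 12, while Krt1, Lor and Flg had none. The part of these promoters in the results was not tested either.

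Promoters are described first. A promoter peak is a summit within 1500 bases of a start site of the gene. It was present at 4 of the 10 genes in Msx2-WT, 5 in replicate 1 and 8 in replicate 2, beside 47.1%, 37.9% and 53.6% of all protein-coding genes. Postn, Angptl2 and Sparc had one in every library, Ltbp1 and Npnt in both Msx2-KO libraries but not in Msx2-WT, Ltbp2 in Msx2-WT and replicate 2, and Tnc and Fn1 in replicate 2 alone. Fbln1 and Fbn1 had no promoter peak in any library, as was the case for 43.8% of all genes. The share of all genes with a promoter peak in every library was 35.2%, in both Msx2-KO libraries but not in Msx2-WT 2.31%, in replicate 2 alone 6.45%, and in Msx2-WT and replicate 2 without replicate 1 9.62%. None of the 10 promoters was open in Msx2-WT alone, a class that held 2.14% of all genes.

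**Figure D1:**
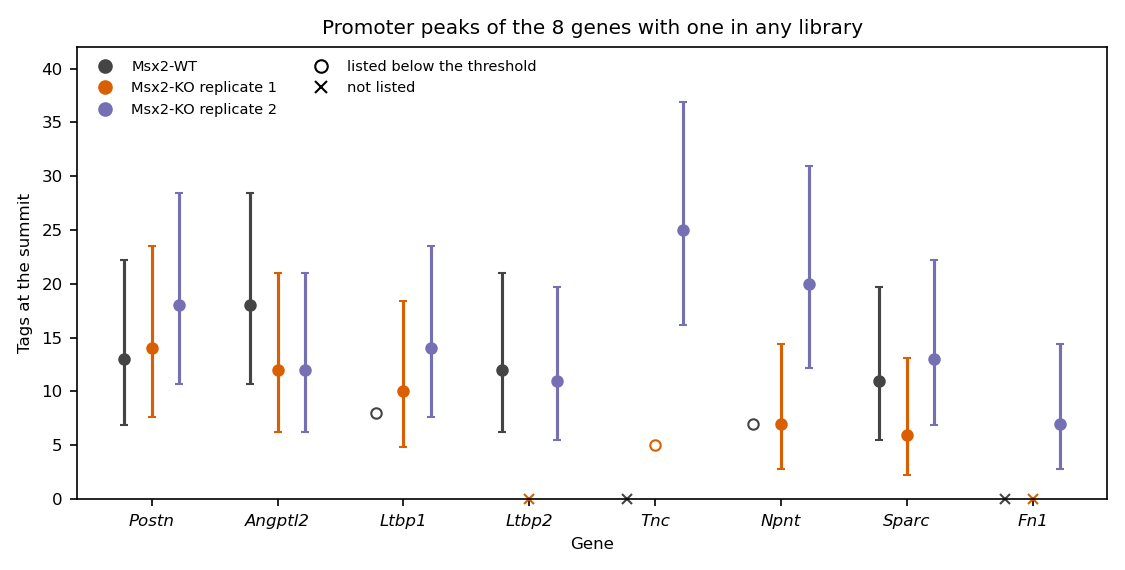
Tags at the promoter summit (y axis, number) of the 8 genes with a promoter peak in any library (x axis), for Msx2-WT (grey), Msx2-KO replicate 1 (orange) and Msx2-KO replicate 2 (purple). Filled points are called peaks with 95% Poisson intervals, open points are summits listed below the threshold and crosses mark no listed summit; Tnc spans from no listed summit in Msx2-WT to 25 tags in replicate 2.

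The gene windows, from 20 kb before the outermost start site to the gene end, together held 23 peaks in Msx2-WT, 23 in replicate 1 and 45 in replicate 2. A peak lay in the window of 9, 9 and 10 of the genes, beside 64.4%, 52.7% and 69.1% of all protein-coding genes, whose windows are shorter (median 37.4 kb, against 94.6 kb for the 10 genes). Per 100 kb the 10 genes had 1.79 peaks in Msx2-WT, 1.79 in replicate 1 and 3.51 in replicate 2, and all genes had 1.98, 1.22 and 2.25. The peaks were mostly intronic: 17 of 23 in Msx2-WT, 15 of 23 in replicate 1 and 35 of 45 in replicate 2. Summits held a median of 14 tags in Msx2-WT, 7 in replicate 1 and 11 in replicate 2, so these are weak peaks, at 0.609, 0.636 and 0.458 of the library median. For 4 genes (Ltbp1, Fbn1, Tnc and Npnt) both Msx2-KO libraries had more peaks than Msx2-WT, and for 2 (Fbln1 and Angptl2) both had fewer. The same counts were not made over all genes. The lists also differ in length and in the fewest tags called, so these counts mark no trait of the 10 genes.

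**Figure D2:**
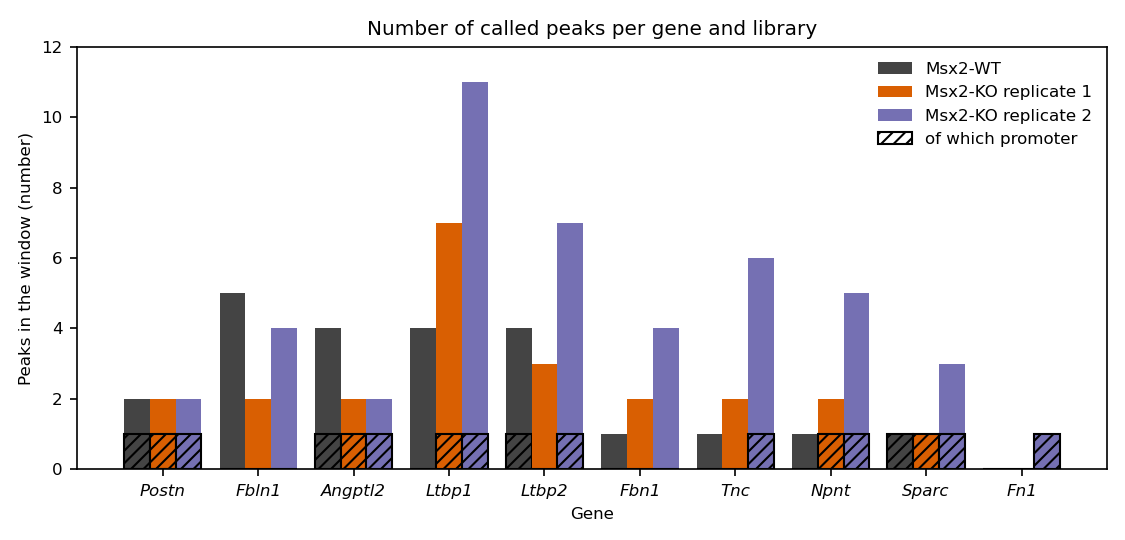
Number of called peaks (y axis) in the window of each of the 10 genes (x axis) for the 3 libraries, with promoter peaks hatched. Ltbp1 has 4, 7 and 11 peaks in Msx2-WT, Msx2-KO replicate 1 and Msx2-KO replicate 2, while Fbln1 has 5, 2 and 4 with no promoter peak.

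**Figure D3:**
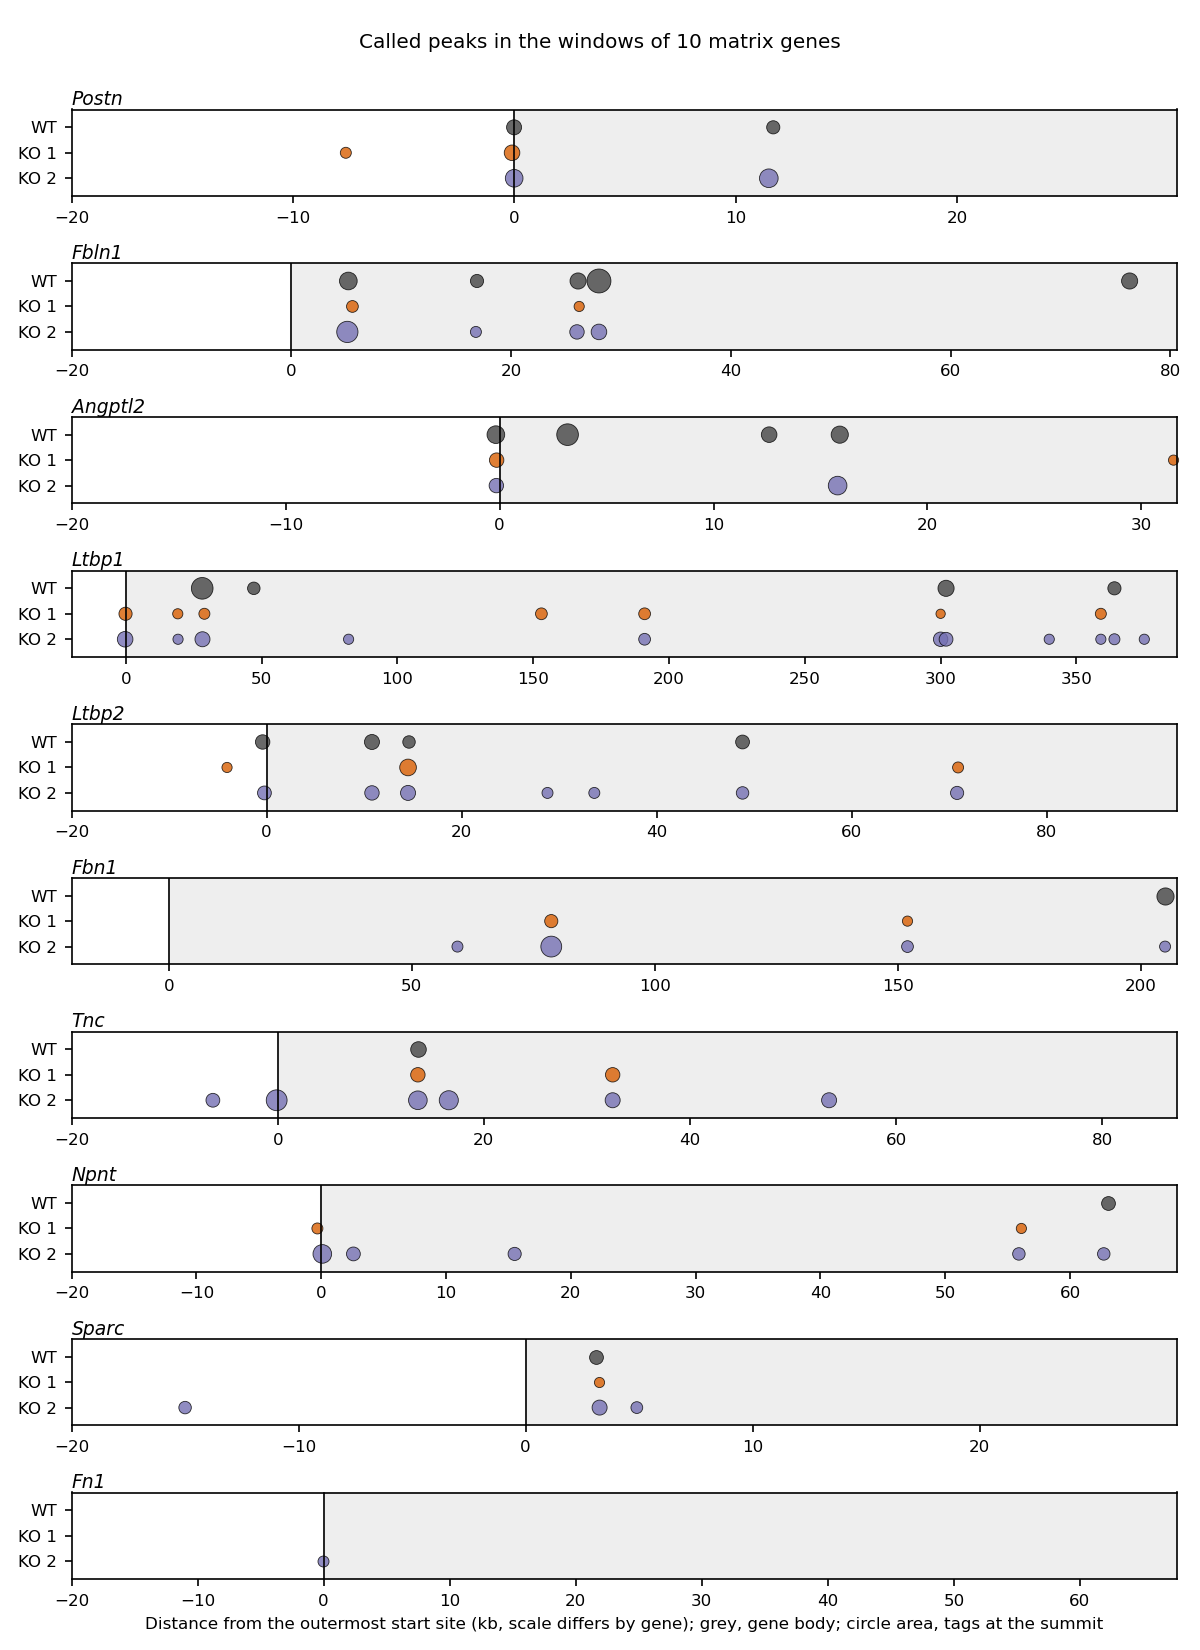
Position of each called peak (x axis, kb from the outermost start site, with a separate scale for each gene) in the 3 libraries (rows), for the 10 genes. Grey marks the gene body and the area of a circle is proportional to the tags at the summit; the circles of Fbln1 and Fbn1 all lie inside the gene and none at the start.

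Fbn1 encodes fibrillin-1, the backbone of microfibrils (chromosome 2, 125300594 to 125507993, minus strand, GRCm38). Its 207-kb body and the 20 kb before it held 1 peak in Msx2-WT, 2 in replicate 1 and 4 in replicate 2, all in introns. The region in intron 5, 78.7 kb from the start, had 10 tags (4.80 to 18.4) in replicate 1 and 25 tags (16.2 to 36.9) in replicate 2. In Msx2-WT this site was listed with 8 tags, below the threshold at a −log10 q of 1.63. The relative tag number was 0.348 in Msx2-WT, 0.909 in replicate 1 and 1.04 in replicate 2, so both Msx2-KO libraries lay above Msx2-WT and near each other. Its sequence is shown because it is the strongest site of the gene in both Msx2-KO libraries. It holds no match to the AP-1, homeobox, SOX, RUNX or TEAD letters described further on (chr2:125429198-125429398, GRCm38, minus strand, 5′ to 3′).
Fbn1 intron 5: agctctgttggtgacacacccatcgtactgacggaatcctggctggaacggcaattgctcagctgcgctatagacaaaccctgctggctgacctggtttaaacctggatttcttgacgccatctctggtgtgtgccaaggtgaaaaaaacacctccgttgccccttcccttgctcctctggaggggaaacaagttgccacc
A second region, in intron 31, had 6 tags in replicate 1 and 8 in replicate 2 with none listed in Msx2-WT. The pattern turned at the far end of the gene: the region in intron 64 had 17 tags (9.90 to 27.2) in Msx2-WT and 7 (2.81 to 14.4) in replicate 2, and none was listed in replicate 1. The scaled ratio of replicate 2 to Msx2-WT there was 0.395 (95% interval 0.138 to 1.00), and over the library background the libraries were close, at 9.78 times in Msx2-WT and 8.86 times in replicate 2.

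Fbln1 encodes fibulin-1, which binds fibronectin and sits in basement membranes and elastic fibres (chromosome 15, 85205949 to 85286535, plus strand). It had 5 peaks in Msx2-WT, 2 in replicate 1 and 4 in replicate 2, each in an intron, and none within 1500 bases of a start site. The region in intron 1, 5.10 kb inside the gene, had 18 tags in Msx2-WT, 8 in replicate 1 and 26 in replicate 2. Scaled to the library medians, replicate 1 stood at 0.929 times Msx2-WT (0.350 to 2.25) and replicate 2 at 1.38 times (0.730 to 2.68), and both intervals include equality. Over the library background this region stood at 10.4 times in Msx2-WT, 16.8 in replicate 1 and 32.9 in replicate 2. The region in intron 7 had 15, 6 and 12 tags in the same order, also with intervals that include equality (0.836, 0.266 to 2.28, and 0.767, 0.328 to 1.75). Over the library background the order turned, with 8.63 times in Msx2-WT, 12.6 in replicate 1 and 15.2 in replicate 2.
Other introns of Fbln1 were highest in Msx2-WT relative to the library median. In intron 8 the Msx2-WT summit held 33 tags (22.7 to 46.3) and replicate 2 held 14 (7.65 to 23.5), a scaled ratio of 0.407 (0.201 to 0.781). Over the library background the gap was small, at 19.0 times in Msx2-WT and 17.7 times in replicate 2. No summit was listed there in replicate 1, where the Msx2-WT level relative to the library median would correspond to 15.8 tags. The region in intron 16, 76.3 kb from the start, had 15 tags in Msx2-WT and no listed summit in either Msx2-KO library. The intron 8 sequence is shown for its AP-1 match, the letters TGANTCA recognised by FOS and JUN dimers, in capitals (chr15:85233845-85234045, plus strand).
Fbln1 intron 8: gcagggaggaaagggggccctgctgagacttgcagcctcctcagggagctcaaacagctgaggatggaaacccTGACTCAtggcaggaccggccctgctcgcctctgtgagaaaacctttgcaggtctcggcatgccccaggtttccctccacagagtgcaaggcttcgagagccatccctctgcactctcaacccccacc

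Ltbp1 encodes latent TGF-beta binding protein 1, which tethers the latent growth factor to the matrix (chromosome 17, 75005568 to 75392512, plus strand). It was the longest of the genes and had the most regions, 13, with 4 peaks in Msx2-WT, 7 in replicate 1 and 11 in replicate 2. At the promoter, 281 bases before the outermost start, replicate 1 had 10 tags (4.80 to 18.4) and replicate 2 had 14 (7.65 to 23.5). Msx2-WT had 8 tags there, below its threshold at a −log10 q of 1.63, so the site was listed in all libraries, on different sides of the threshold. Relative tag numbers were 0.348 in Msx2-WT, 0.909 in replicate 1 and 0.583 in replicate 2. The promoter sequence is shown with its CG dinucleotides in capitals, of which there are 9 (chr17:75005187-75005387, plus strand).
Ltbp1 promoter: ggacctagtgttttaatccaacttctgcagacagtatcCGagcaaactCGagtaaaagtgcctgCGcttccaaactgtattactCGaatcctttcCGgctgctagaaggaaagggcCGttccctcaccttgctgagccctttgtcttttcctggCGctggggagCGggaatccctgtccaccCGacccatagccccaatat
Of the 13 regions, 5 were held by both Msx2-KO libraries but not by Msx2-WT: the promoter, and sites in introns 2, 5, 19 and 30. The 4 intronic sites were weak, with 5 to 8 tags in replicate 1 and 6 to 12 in replicate 2. Other regions had their highest relative tag number in Msx2-WT. In intron 2, 28.1 kb inside the gene, Msx2-WT had 27 tags (17.8 to 39.3), replicate 1 had 7 (2.81 to 14.4) and replicate 2 had 13 (6.92 to 22.2). The scaled ratios to Msx2-WT were 0.542 (0.199 to 1.28) for replicate 1 and 0.461 (0.219 to 0.926) for replicate 2, while over the library background the 3 libraries were level, at 15.5, 14.7 and 16.5 times. The summit of replicate 1 lay 820 bases from that of Msx2-WT. The merged region may therefore hold more than a single site. The site in the same intron at 47.1 kb, with 9 tags, was called in Msx2-WT alone and listed below the threshold in replicate 1. Sites in introns 19 (at 302 kb) and 31 (at 364 kb) were called in Msx2-WT, with 15 and 10 tags, and in replicate 2, with 11 and 7, and were not listed in replicate 1. Replicate 2 was below Msx2-WT relative to the library median at both (ratios 0.703, 0.292 to 1.64, and 0.671, 0.217 to 1.95) and above it over background (13.9 against 8.63 times, and 8.86 against 5.75 times).

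Ltbp2 encodes a relative of LTBP1 that binds fibrillin-1 and not latent TGF-beta (chromosome 12, 84783212 to 84876532, minus strand). The promoter summit held 12 tags (6.20 to 21.0) in Msx2-WT and 11 (5.49 to 19.7) in replicate 2, and none was listed in replicate 1. The Msx2-KO libraries thus disagreed, and replicate 2 was near Msx2-WT relative to the library median (ratio 0.878, 0.351 to 2.17) and above it over background (13.9 against 6.90 times). The start of the antisense gene D030025P21Rik lies within 1500 bases of the same peak, so the peak cannot be given to one gene. Intron 2 held the largest gap between libraries among the shared regions. Its site at 14.5 kb had 9 tags (4.12 to 17.1) in Msx2-WT, 16 (9.15 to 26.0) in replicate 1 and 13 (6.92 to 22.2) in replicate 2. Replicate 1 was 3.72 times Msx2-WT (1.55 to 9.54), whereas replicate 2 was 1.38 times (0.547 to 3.67) and lay below replicate 1, at 0.372 times (0.165 to 0.826). Relative to the library median, replicate 1 and replicate 2 thus lay further apart than replicate 2 and Msx2-WT. Over the library background this did not hold, with 5.18 times in Msx2-WT, 33.6 in replicate 1 and 16.5 in replicate 2. A weaker site in intron 15 had 7 tags in replicate 1 and 10 in replicate 2, with 7 in Msx2-WT below the threshold. A peak of 6 tags in replicate 1, 4.06 kb before the start, lies near the start of the lincRNA Gm48709.

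Fn1 encodes fibronectin, the adhesive glycoprotein that cells bind through alpha5 beta1 integrin (chromosome 1, 71585520 to 71653200, minus strand). It was the least accessible of the 10 genes, with a single peak in the window. That peak lay 20 bases before the outermost start and held 7 tags (2.81 to 14.4) in replicate 2. No summit was listed there in Msx2-WT or replicate 1. At 0.292 of the library median the replicate 2 level would correspond to 6.71 tags in Msx2-WT, fewer than the 9 it needed. On this scale, absence from Msx2-WT could not be told from a level like that of replicate 2. Over the library background it was otherwise. Replicate 2 stood at 8.86 times, above the 5.18 times of a called Msx2-WT peak of 9 tags in intron 2 of Ltbp2. The antisense gene Apol7d starts within 1500 bases of this peak.

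Npnt encodes nephronectin, a ligand of alpha8 beta1 integrin in the basement membrane (chromosome 3, 132881745 to 132950291, minus strand). Its promoter held 7 tags (2.81 to 14.4) in replicate 1 and 20 (12.2 to 30.9) in replicate 2. Msx2-WT was listed with 7 tags at a −log10 q of 0.462, below the threshold. Relative to the library medians the promoter stood at 0.304 in Msx2-WT, 0.636 in replicate 1 and 0.833 in replicate 2. The promoter is a CpG-rich one, with 83.0% G+C over the 300 bases around the summit, the highest of the 53 regions of the 10 genes. The 200 bases before the outermost start are shown with their 19 CG dinucleotides in capitals, beside the 3 in the Postn promoter given further on (chr3:132950292-132950491, minus strand).
Npnt promoter: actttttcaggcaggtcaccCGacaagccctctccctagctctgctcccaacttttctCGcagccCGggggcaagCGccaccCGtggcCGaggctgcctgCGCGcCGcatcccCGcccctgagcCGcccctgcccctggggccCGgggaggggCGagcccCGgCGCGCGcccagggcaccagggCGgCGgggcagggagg
Inside Npnt, the site in intron 8 was called in both Msx2-KO libraries, with 6 tags in replicate 1 and 9 in replicate 2, and Msx2-WT was listed with 7 tags below the threshold. The site in intron 10 had 11 tags in Msx2-WT and 9 in replicate 2 and was not listed in replicate 1. Sites at 2.58 and 15.5 kb were called in replicate 2 alone.

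Angptl2 encodes angiopoietin-like 2, a secreted glycoprotein that acts on cells through integrins (chromosome 2, 33216069 to 33247717, plus strand), and lies within Ralgps1, which is read from the opposite strand, so its peaks also lie in Ralgps1. The promoter, 135 bases before the start, was open in every library with 18 tags (10.7 to 28.4) in Msx2-WT, 12 (6.20 to 21.0) in replicate 1 and 12 (6.20 to 21.0) in replicate 2. The ratio to Msx2-WT was 1.39 (0.612 to 3.06) for replicate 1 and 0.639 (0.281 to 1.40) for replicate 2, so the Msx2-KO libraries fell on either side of Msx2-WT, whereas over the library background both were above it (10.4, 25.2 and 15.2 times). The promoter sequence is shown with its 5 CG dinucleotides in capitals, as the example of a G+C-rich promoter shared by all libraries (chr2:33215834-33216034, plus strand).
Angptl2 promoter: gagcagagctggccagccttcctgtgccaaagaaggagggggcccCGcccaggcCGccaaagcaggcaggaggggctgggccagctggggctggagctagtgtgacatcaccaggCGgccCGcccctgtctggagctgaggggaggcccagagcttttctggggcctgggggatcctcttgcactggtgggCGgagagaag
The clearest contrast at Angptl2 was in intron 1. At 3.18 kb Msx2-WT had 27 tags (17.8 to 39.3) at a −log10 q of 12.1, and no summit was listed in either Msx2-KO library, where that level would correspond to 12.9 tags in replicate 1 and 28.2 in replicate 2. These are above the fewest tags called in those libraries, 5 and 6, though a single site can need more. Over the library background Msx2-WT stood at 15.5 times. Peaks of 5 tags in replicate 1 and 6 in replicate 2 stood at 10.5 and 7.59 times, so the margin was smaller on that scale. A site in exon 2, with 14 tags in Msx2-WT, was likewise unlisted in both. The intron 2 site had 17 tags in Msx2-WT and 20 in replicate 2, without a listed summit in replicate 1. The intron 1 sequence is shown with its AP-1 match in capitals (chr2:33219150-33219350, plus strand).
Angptl2 intron 1: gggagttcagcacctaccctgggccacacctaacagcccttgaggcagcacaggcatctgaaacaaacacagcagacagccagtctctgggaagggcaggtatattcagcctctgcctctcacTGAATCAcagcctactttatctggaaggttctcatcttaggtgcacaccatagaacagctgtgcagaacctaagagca

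Postn encodes periostin, a matricellular protein that binds integrins and collagen (chromosome 3, 54361109 to 54391037, plus strand). Its promoter was open in every library, with 13 tags (6.92 to 22.2) in Msx2-WT, 14 (7.65 to 23.5) in replicate 1 and 18 (10.7 to 28.4) in replicate 2. Scaled to the library medians, replicate 1 was 2.25 times Msx2-WT (0.982 to 5.20) and replicate 2 was 1.33 times (0.615 to 2.95). Both were higher and neither interval excluded equality. Over the library background the gap was wider, with 7.48 times in Msx2-WT, 29.4 in replicate 1 and 22.8 in replicate 2. The sequence before the start is shown with CG dinucleotides and the TATA box letters TATAAA in capitals. TATAAA begins 28 bases before the outermost start, and these letters occur on either strand within 300 bases at 4.26% of the 11739 promoter regions (chr3:54360908-54361108, plus strand).
Postn promoter: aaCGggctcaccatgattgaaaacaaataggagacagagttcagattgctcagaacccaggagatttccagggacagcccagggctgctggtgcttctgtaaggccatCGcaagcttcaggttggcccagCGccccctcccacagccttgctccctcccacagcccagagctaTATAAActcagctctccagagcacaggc
A region inside Postn had 10 tags (4.80 to 18.4) in Msx2-WT, with the summit in exon 9, at 11.7 kb. Replicate 2 had 20 (12.2 to 30.9) there, with the summit in intron 8, at 11.5 kb. The scaled ratio was 1.92 (0.856 to 4.59), and over background these were 5.75 times in Msx2-WT and 25.3 times in replicate 2. Replicate 1 was listed with 6 tags, below its threshold. A peak of 7 tags, 7.61 kb before the start, was in replicate 1 alone. Postn therefore had 2 peaks in each library, and the promoter was the one that all 3 shared.

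Tnc encodes tenascin-C, a large matricellular glycoprotein that loosens adhesion to fibronectin (chromosome 4, 63959785 to 64047015, minus strand). It showed the largest range of promoter tags. Replicate 2 had 25 tags (16.2 to 36.9) at a −log10 q of 15.7, and none was listed in Msx2-WT, where that level would correspond to 24.0 tags. Replicate 1 had 5 tags at a −log10 q of 1.98, just under the threshold. Relative tag numbers were 0.455 in replicate 1 and 1.04 in replicate 2, so the Msx2-KO libraries differed from each other as well. The promoter sequence has CG dinucleotides and TATAAA in capitals, with TATAAA beginning 126 bases before the outermost start (chr4:64047016-64047216, minus strand).
Tnc promoter: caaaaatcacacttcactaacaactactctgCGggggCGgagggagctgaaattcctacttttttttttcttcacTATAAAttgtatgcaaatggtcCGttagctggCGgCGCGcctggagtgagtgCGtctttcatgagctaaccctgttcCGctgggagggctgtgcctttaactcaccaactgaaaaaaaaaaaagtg
In intron 1, 13.6 kb inside the gene, all libraries had a peak, of 14 tags (7.65 to 23.5) in Msx2-WT, 12 (6.20 to 21.0) in replicate 1 and 20 (12.2 to 30.9) in replicate 2, and their summits lay within 8 bases of each other. The ratios to Msx2-WT, 1.79 (0.757 to 4.17) and 1.37 (0.658 to 2.93), both have intervals that include equality. Over the library background the gap was wider, with 8.06 times in Msx2-WT, 25.2 in replicate 1 and 25.3 in replicate 2. In intron 4, 32.5 kb inside the gene, replicate 1 had 12 tags (6.20 to 21.0) and replicate 2 had 13 (6.92 to 22.2), with summits 22 bases apart, and none was listed in Msx2-WT. The levels of the Msx2-KO libraries would correspond to 25.1 and 12.5 tags in Msx2-WT, both above its 9. This was the strongest region of the 10 genes that both Msx2-KO libraries held and Msx2-WT did not list at all. Both sequences hold CAATTA, the reverse complement of TAATTG, a core bound by homeobox factors of the Msx type. It is in capitals with, in intron 4, the TEAD letters GGAATG (chr4:64033303-64033503 for intron 1 and chr4:64014437-64014637 for intron 4, minus strand).
Tnc intron 1: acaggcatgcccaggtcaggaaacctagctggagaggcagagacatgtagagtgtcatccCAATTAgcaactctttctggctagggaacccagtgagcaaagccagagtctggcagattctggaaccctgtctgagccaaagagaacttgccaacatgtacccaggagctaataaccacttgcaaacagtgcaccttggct
Tnc intron 4: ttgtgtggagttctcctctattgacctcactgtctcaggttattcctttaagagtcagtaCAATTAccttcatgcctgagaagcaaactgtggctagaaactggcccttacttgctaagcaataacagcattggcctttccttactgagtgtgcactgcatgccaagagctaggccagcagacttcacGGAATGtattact
Sites at 16.6 and 53.5 kb and 6.29 kb before the start were called in replicate 2 alone, with 21, 13 and 11 tags, and replicate 1 was listed below the threshold at each. At 53.5 kb Msx2-WT was also listed, with 8 tags at a −log10 q of 1.63. The non-coding gene 8030451A03Rik overlaps Tnc on the other strand.

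Sparc encodes a collagen-binding matricellular protein (chromosome 11, 55394500 to 55423183, minus strand). Its promoter peak lay 3.26 kb inside the outermost annotated start and 22 bases before an inner start site. It held 11 tags (5.49 to 19.7) in Msx2-WT, 6 (2.20 to 13.1) in replicate 1 and 13 (6.92 to 22.2) in replicate 2. The ratios to Msx2-WT were 1.14 (0.346 to 3.36) and 1.13 (0.468 to 2.79), the nearest to equality on this scale of the 3 promoters open in every library (6.33, 12.6 and 16.5 times over background), with intervals wide enough to hold a 2-fold change either way. The remaining Sparc peaks, 4.90 kb inside the outermost start and 15.0 kb before it, were in replicate 2 alone, with 8 and 9 tags.

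Peaks of the 3 libraries that overlapped were merged, which gave 53 regions, 8 at promoters and 45 elsewhere. A peak in every library marked 8 regions (15.1%), against 32.0% of the 32602 regions in the windows of all protein-coding genes. Both Msx2-KO libraries and not Msx2-WT held 11 regions (20.8%, in 5 genes), against 6.69%. Msx2-WT alone held 4 (7.55%), against 17.6%. Of the classes that set one Msx2-KO library apart, Msx2-WT with replicate 2 held 11 regions (20.8%, against 15.5%), replicate 2 alone held 15 (28.3%, against 25.4%) and replicate 1 alone held 4 (7.55%, against 2.15%), while Msx2-WT with replicate 1 held 0 (against 0.678%). Outside promoters, where most of the 53 lie, both Msx2-KO libraries but not Msx2-WT held 9 of 45 regions, against 7.93% of such regions in all windows. There, replicate 1 alone held 4 of 45 (8.89%, against 3.08%), and Msx2-WT with replicate 1 held 0 (against 0.891%). Every library held 5 (11.1%, against 17.2%), Msx2-WT alone 4 (8.89%, against 24.5%) and Msx2-WT with replicate 2 10 (22.2%, against 14.4%). Replicate 2 alone held 13 (28.9%, against 32.0%), below the share in all windows, where with promoters included it was above. These shares describe 53 neighbouring and partly weak sites, and no test was run on them.
The size of the class held by both Msx2-KO libraries but not Msx2-WT moved with the threshold, while its share stayed above that of all windows at each threshold tried. It was 14.8% (against 4.87%) at a −log10 q of at least 5, 10.3% (against 3.22%) with every deposited peak, and 13.9% (5 of 36 regions, against 10.8%) with lists of equal length, the strongest 18518 peaks of each library. The share of replicate 1 alone was likewise above that of all windows at each of these thresholds. It was 11.1% (against 0.946%) at a −log10 q of at least 5 and 7.69% (against 5.18%) with every deposited peak. With lists of equal length it was 38.9% (14 of 36, against 11.1%), so this stability is not particular to the class of both Msx2-KO libraries. Of the 11 regions in both Msx2-KO libraries but not Msx2-WT, 6 were listed in Msx2-WT below the threshold used here and 5 were unlisted. At 6 of the 11, the levels of both Msx2-KO libraries relative to the library median would correspond to at least 9 tags in Msx2-WT. At the other 5 the level of at least one would fall short of it on this scale. Of the 4 regions held by Msx2-WT alone, 3 would reach the fewest called tags in both Msx2-KO libraries at the Msx2-WT level. They are intron 16 of Fbln1 and intron 1 and exon 2 of Angptl2. Scaled by the background instead, Msx2-KO levels would correspond to more tags in Msx2-WT, and Msx2-WT levels to fewer in Msx2-KO. Both counts rest on the median scale and were not made on the other.

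**Figure D4:**
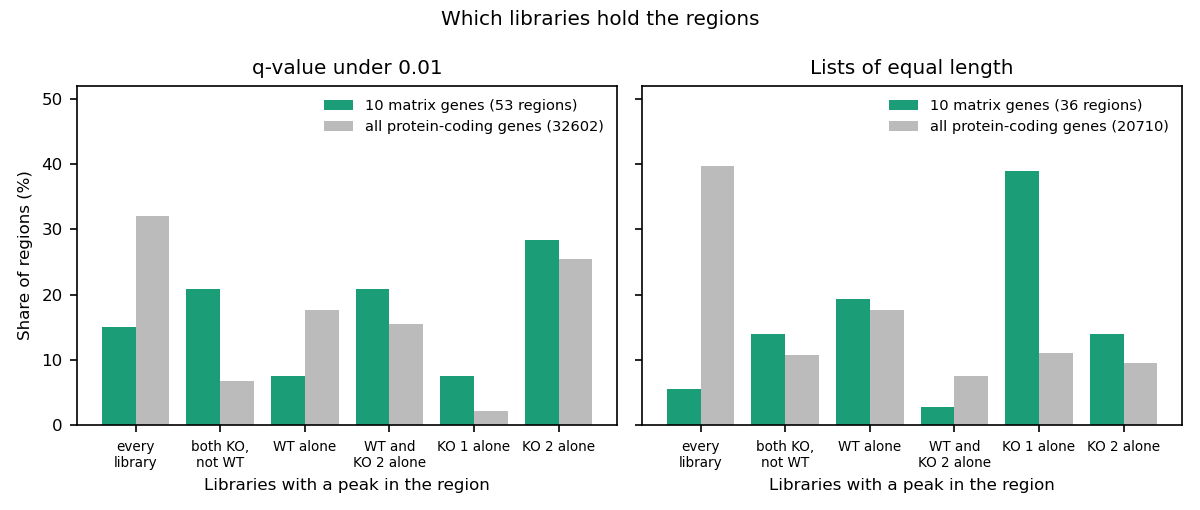
Share of regions (y axis, percent) by the libraries that hold a peak there (x axis), for the windows of the 10 genes (green) and of all protein-coding genes (grey), with peaks at a q-value under 0.01 (left) and with lists of equal length (right). The share in both Msx2-KO libraries but not Msx2-WT is 20.8% beside 6.69% on the left and 13.9% beside 10.8% on the right.

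At the 8 regions of every library the relative tag number was lower in Msx2-WT than in both Msx2-KO libraries at 4 (the promoters of Postn and Sparc, intron 2 of Ltbp2 and intron 1 of Tnc). It was higher in Msx2-WT at 2 (intron 7 of Fbln1 and intron 2 of Ltbp1) and between them at the other 2. Over the library background it was lower in Msx2-WT at 7, higher at 0 and between them at 1. Relative to the library median, a difference of at least 2-fold in the same direction in both Msx2-KO libraries was seen at 0 of the 8, beside 4.86% of 13074 such regions that were higher in both and 3.24% that were lower. Over background it was seen at 3, all higher in Msx2-KO (the Postn promoter, intron 2 of Ltbp2 and intron 1 of Tnc). The median relative tag number was 0.631 in Msx2-WT, 0.909 in replicate 1 and 0.542 in replicate 2, so the Msx2-KO libraries lay on either side of Msx2-WT on this scale.

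**Figure D5:**
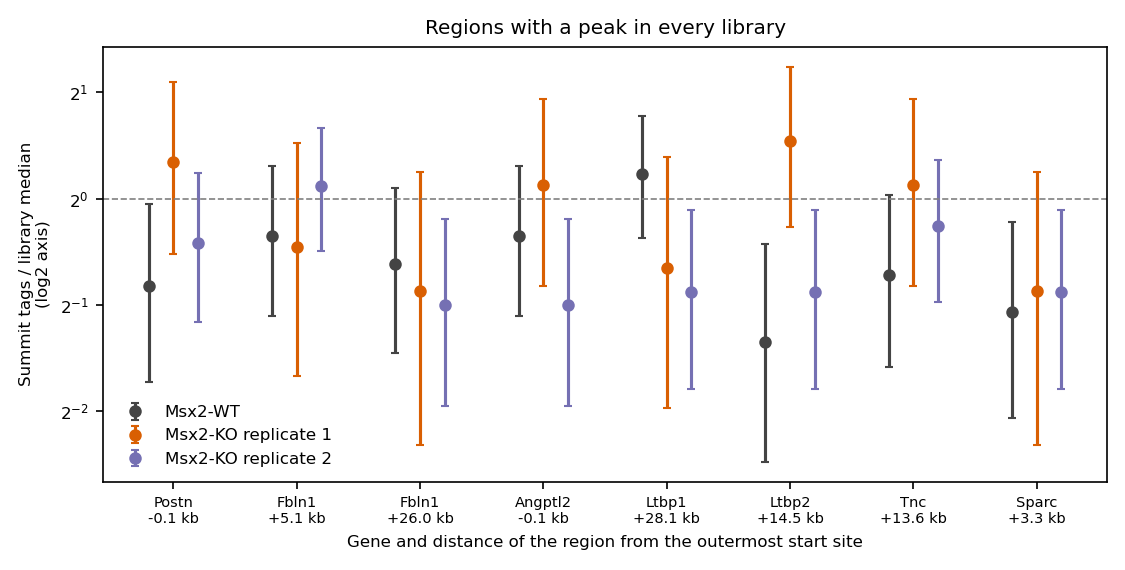
Summit tags over the library median, on a log2 axis (y axis), at the 8 regions with a peak in every library (x axis, gene and distance from the outermost start), with 95% Poisson intervals. Msx2-WT is grey, Msx2-KO replicate 1 orange and Msx2-KO replicate 2 purple; intron 2 of Ltbp2 (at 14.5 kb) shows the widest gap, from 0.391 in Msx2-WT to 1.45 in replicate 1.

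The sequences of the regions were searched on both strands within 300 bases around each summit. The AP-1 letters TGANTCA were in 13 of the 45 regions outside promoters (28.9%, against 19.1% of all regions outside promoters) and in 0 of the 8 promoters (5.23% of all promoter regions). The Msx-type homeobox letters TAATTG were in 7 of 45 (15.6%, against 12.4%) and in the Tnc promoter. By class, they were in 3 of the 11 regions held by both Msx2-KO libraries but not Msx2-WT and in 0 of the 4 held by Msx2-WT alone. They were also in 2 of the 11 of Msx2-WT with replicate 2 and 2 of the 15 of replicate 2 alone. Regions of every library held them in 1 of 8, and those of replicate 1 alone in 0 of 4. Shares over all regions of each class were not computed. The SOX letters ACAANG were in 21 of 45 (46.7%, against 50.4%), RUNX TGTGGT in 8 (17.8%, against 21.2%), TEAD GGAATG in 12 (26.7%, against 20.7%) and SMAD CAGAC in 27 of 45, against 55.9% of all regions outside promoters. A match is a description of the letters and not of a bound site. The promoters ranged from 47.3% G+C at Tnc to 83.0% at Npnt, with a median of 61.8% beside 64.3% for all promoter regions, and the other regions had a median of 49.7% beside 48.0%.

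Among 26 other genes of elastic fibres and matricellular proteins, 9 promoters were open in Msx2-WT, 6 in replicate 1 and 11 in replicate 2. The shares of all protein-coding genes were 47.1%, 37.9% and 53.6%. Efemp1, Ltbp3, Thbs1, Ccn1, Ccn2 and Tgfbi were open in every library, a state of 35.2% of all genes. In 14 genes, elastin (Eln) among them, no library had a promoter peak, beside 43.8% of all genes. None of the 26 was open in both Msx2-KO libraries but not in Msx2-WT, the state of Ltbp1 and Npnt among the 10. That state held 2.31% of all genes, so its absence among 26 genes says little. Of the 26, 1 (Ltbp4, another latent TGF-beta binding protein) was open in Msx2-WT alone, with 43 tags, beside 2.14% of all genes. Smoc2, which encodes a matricellular calcium-binding protein, had the most peaks in its window in Msx2-WT, with 8, and in replicate 2, with 10, and had 1 in replicate 1.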

How the data were processed

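Omni-ATAC-seq peak lists, 1 per library (1 Msx2-WT and 2 Msx2-KO), were used as deposited. By the methods of the study, reads were trimmed (Trimmomatic) and mapped to GRCm38 (mm10) by BWA-MEM, mitochondrial reads were removed, and peaks were called with MACS2 with no shifting model and duplicates kept. The deposited lists hold 1 set of calls for each library. The MACS2 version is not given in the sources used here. The authors deposited for each summit a fold enrichment (a ratio of tags to local background), −log10 p and −log10 q values, and a score that was not used. The lists hold summits with a q-value above 0.01, so a −log10 q above 2.0 was required.

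Whole tag numbers were solved from the fold and −log10 p (99.9% of summits or more, tolerance 1e-05) and scaled by the library median over 13074 regions found in all libraries. Read totals are not in the lists, and the commonest background, 1.74, 0.476 and 0.790 tags per window in Msx2-WT, replicate 1 and replicate 2, stands for depth. Start sites came from GENCODE M21 basic (GRCm38), introns from the longest transcript of each gene, and sequences from the RefSeq GRCm38 genome. Peaks sharing at least 1 base were merged. Ratios carry exact conditional 95% intervals. On simulated peaks, tag numbers were exact for at least 99.97% and all 3000 planted regions returned to their class.

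Samples were grouped by the labels, and no p-value between genotypes was computed. All 10 genes were named, other matrix genes by their promoter state or number of peaks, and Eln, single marker genes and the TATAAA search were added after values were seen. The genes, lists and motifs were chosen with earlier results of these data known. The results were recomputed with every deposited peak, with lists of equal length, with a −log10 q of 5 or more, with other promoter and gene windows, with the outermost start alone, with other rules for overlap and scaling, and leaving out each Msx2-KO library. Scripts ran in Python 3.11.15 with scipy 1.17.1, pandas 2.3.3, matplotlib 3.10.9 and numpy 2.4.6.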

Additional observations from a re-analysis of the deposited data

How the results depend on the processing

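Of 105 values recomputed for 15 counts, 60 stayed within 1.5 times the reported one, and the cause of the other shifts was not tested. At a −log10 q of at least 5, promoter peaks numbered 1 in Msx2-WT and 3 in replicate 1, window peaks 10, 9 and 19, regions of every library 1, of both Msx2-KO libraries but not Msx2-WT 4, and of Msx2-WT with replicate 2 4. With lists of equal length, promoter peaks numbered 2 in Msx2-WT and 5 in replicate 2, with 4 in both Msx2-KO libraries but not Msx2-WT and 1 in Msx2-WT alone. Promoter shares over all genes were not computed at this or the other settings, so the 4 cannot be set beside them. Among regions in all windows, the class of both Msx2-KO libraries but not Msx2-WT was 10.8% with these lists, against 6.69% at the main threshold. Window peaks were then 12 in Msx2-WT and 13 in replicate 2, and regions 2 in every library, 5 in both Msx2-KO libraries but not Msx2-WT, 7 in Msx2-WT alone, 1 in Msx2-WT with replicate 2 and 5 in replicate 2 alone. With every deposited peak, promoter peaks were 7 in Msx2-WT, with 1 in both Msx2-KO libraries but not Msx2-WT, window peaks 71, 40 and 68, and regions 18 in every library, 39 in Msx2-WT alone and 25 in replicate 2 alone. Tags were then 2-fold higher in both Msx2-KO libraries at 1 region and lower at 1, and with tags over the library background they were higher at 3. With 50% reciprocal overlap, 3 regions were in every library, 10 in Msx2-WT alone and 25 in replicate 2 alone. With summits within 100 bases, these were 4, 10 and 25, and 7 were in both Msx2-KO libraries but not Msx2-WT.

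Without Msx2-KO replicate 1 or without replicate 2, promoters open in the remaining Msx2-KO library and not in Msx2-WT numbered 2 to 4, and those in Msx2-WT alone 0 to 1. Regions of every library were 8 to 19, of the remaining Msx2-KO library and not Msx2-WT 15 to 26, and of Msx2-WT alone 4 to 15. Regions 2-fold higher numbered 1 to 2 and 2-fold lower 0 to 2. The larger counts of 26 regions and 4 promoters came without replicate 1, and the 15 of Msx2-WT alone came without replicate 2. No paired analysis was possible because Msx2-WT and Msx2-KO share fewer than 2 replicate numbers. The fewest tags that made a peak were 9 in Msx2-WT and 5 in replicate 1, which limits what an absent weak peak shows.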
